A study of Mus musculus with 4 samples.

Results

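The genes that carry cholesterol to progesterone were followed across sections of the mouse ovary. The set was chosen by gene symbol and held 8 of the 32285 genes of the deposited tables: Scarb1, Star, Tspo, Cyp11a1, Fdx1, Fdxr, Hsd3b1 and Hsd3b6. Expression had been captured with the Visium assay, in which RNA leaving a frozen tissue section binds to a grid of barcoded spots and is counted as unique molecular identifiers (UMIs), 1 per captured molecule. The mice were outbred CD-1 females, for which the labels name no treatment or altered gene. Those called young were 3 to 4 months old and those called aged were 15 to 16 months old, with 4 females and 4 sections per age. Ageing was natural. Each of 4 capture areas held 1 young and 1 aged section on the same array, prepared as a single library. The stage of the oestrous cycle is not given in the sources used here. Because a spot covers several cells, fewer cells of a type and less RNA per cell cannot be told apart in any value below.

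Progesterone is made from cholesterol in a short series of steps. Cholesterol enters the cell, crosses to the inner mitochondrial membrane, loses its side chain there to give pregnenolone, and is then converted to progesterone by 3-beta-hydroxysteroid dehydrogenase. In the ovary the main source is the corpus luteum, the gland that forms from the follicle after ovulation. Luteal cells take up cholesterol largely from lipoproteins, and when the gland regresses, the enzyme encoded by Akr1c18 breaks progesterone down.

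The 8 sections held 257 to 762 spots, 4191 in all, with 2777948 to 21619232 UMIs per section. Median UMIs per spot were 14988 to 28120 in young and 8779 to 14928 in aged sections, and aged sections had the larger mitochondrial share in 4 of 4 capture areas. The labels place each age on a side of the area, and the files cannot show whether an image was rotated, which would swap young and aged there. In capture area 3 the zona pellucida gene Zp3 was at 5.77 CPM (UMIs of the gene scaled to a common total of the section) in the young and 49.0 CPM in the aged section, whereas in the other 3 areas it was at 28.2 to 92.2 CPM in young and 4.34 to 5.47 CPM in aged sections. Age comparisons by a fit or of class shares are therefore given with and without area 3. The summed level of 4 adrenal cortex markers (Cyp11b1, Cyp11b2, Cyp21a1 and Mc2r) was 0 to 6.94 CPM, and Cyp11b2 was at 0 in every section.

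Together the 8 genes took 1.97, 2.53, 3.68 and 2.37% of all UMIs in young sections 1 to 4, and 2.24, 3.23, 1.84 and 2.87% in aged sections 1 to 4. Levels of different genes are given per kilobase of the longest annotated protein-coding transcript. A UMI counts 1 molecule whatever its length, so this division can change the order, and undivided CPM are set beside it. Per kilobase, over the 8 sections, Hsd3b1 had a mean of 4688 ± 1198 CPM (SD, n = 8) and Cyp11a1 one of 3814 ± 952. Hsd3b1 was the higher of the pair in 6 of 8 sections, so their order did not hold throughout. In undivided CPM it also changed between sections, with Cyp11a1 the higher in young 1 (5948 beside 5692) and Hsd3b1 in young 3 (13243 beside 9184). Fdx1 followed at 1331 ± 343, below Cyp11a1 in 8 of 8 sections, then Star at 764 ± 411, Scarb1 at 511 ± 187, Tspo at 397 ± 224 and Fdxr at 378 ± 113. In undivided CPM Star was above Fdx1 in young 3 (5466 beside 5094) and aged 2 (5657 beside 4986) and below it elsewhere. Per kilobase, Tspo and Fdxr could not be ordered, since Tspo was the higher in 3 of 8 sections. In undivided CPM Fdxr was the higher in each section, though by little in aged 2 (761 beside 759). Hsd3b6 stood at 0.294 ± 0.233 CPM per kilobase, far below every other member.

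Scarb1, on chromosome 5 (mm10, 125277087 to 125341094, minus strand), encodes the receptor that takes up cholesterol esters from high-density lipoprotein. Its level was 912, 1129, 2179 and 919 CPM in young sections 1 to 4 and 972, 1799, 1000 and 1394 CPM in aged sections 1 to 4. Young 3 and aged 2 were the highest of their ages, and the ages overlapped.

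Star, on chromosome 8 (25806555 to 25815982, plus strand), encodes the protein that moves cholesterol into the mitochondrion, the step that limits the rate of steroid synthesis. Its level was 2857, 3505, 5466 and 1716 CPM in the young and 1472, 5657, 1798 and 2271 CPM in the aged sections. The same sections, young 3 and aged 2, were highest, the lowest of the 8 was aged 1, and the ages overlapped. Tspo, on chromosome 15 (83563592 to 83574203, plus strand), encodes an outer mitochondrial membrane protein long studied in cholesterol import, and it is expressed in many cell types. Its level was 243, 358, 357 and 325 CPM in young and 228, 759, 142 and 248 CPM in aged sections. Aged 2 had the highest and aged 3 the lowest value of the 8, so the aged sections enclosed all young ones.

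Cyp11a1, on chromosome 9 (58006411 to 58027023, plus strand), encodes the enzyme that cleaves the cholesterol side chain. Its level was 5948, 7876, 9184 and 8838 CPM in young and 7815, 10011, 4533 and 10482 CPM in aged sections. Fdx1 (chromosome 9, 51943306 to 51963556, minus strand) and Fdxr (chromosome 11, 115268024 to 115277050, minus strand) encode ferredoxin and ferredoxin reductase, which pass electrons to that enzyme. Fdx1 was at 3461, 3548, 5094 and 3578 CPM in young and 3047, 4986, 2266 and 3405 CPM in aged sections. For Fdxr the values were 551, 534, 1227 and 764 CPM in young and 758, 761, 697 and 594 CPM in aged sections. All 3 genes overlapped between the ages, and aged 3 was the lowest section for Cyp11a1 and Fdx1 but not for Fdxr.

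Hsd3b1 and Hsd3b6 lie close together on the minus strand of chromosome 3 (98852194 to 98859794 and 98805504 to 98814443), and both encode 3-beta-hydroxysteroid dehydrogenases. Their longest protein-coding transcripts were identical at 81.0% of 1786 aligned bases, and at 77.0% of 491 aligned bases in the last 500. Hsd3b1 was at 5692, 8310, 13243 and 7604 CPM in young and 8084, 8375, 7973 and 10291 CPM in aged sections, with the aged sections lying within the range of the young. Hsd3b6 had 2, 12, 4 and 7 UMIs in young and 4, 2, 4 and 2 UMIs in aged sections. In spots thinned to 5000 UMIs, 0.289% of all spots held a UMI of Hsd3b6 (median depth before thinning 17750 UMIs), against 1.03% of 97 spots high in smooth muscle genes (11516 UMIs). The smooth muscle share rests on few spots, and the unthinned shares were 0.811% and 0.800%. With so few UMIs the gene could not be told from background, and no difference in it was read. How the authors' counting placed reads that both genes could match was not tested.

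The promoters of Hsd3b1, of nearby Hsd3b6 and of Fdx1 are shown because they set an abundant member beside a close relative with hardly any UMIs, and beside a member from another chromosome whose level followed that of Hsd3b1 across spots (mean r of 0.63). Each is the 250 bases before the RefSeq start site (GRCm38.p6), written 5′ to 3′ along the gene, with TCAAGG on either strand in capitals. These letters are the core of the sequence bound by Nr5a1 and Nr5a2, nuclear receptors known to drive steroid enzyme genes.
Hsd3b1 (chr3:98859795-98860044, minus strand): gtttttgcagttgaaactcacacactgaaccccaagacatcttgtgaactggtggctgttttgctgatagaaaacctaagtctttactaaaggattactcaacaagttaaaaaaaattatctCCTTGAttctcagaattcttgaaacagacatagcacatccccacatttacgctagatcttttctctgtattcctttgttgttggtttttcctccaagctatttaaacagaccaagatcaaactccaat
Hsd3b6 (chr3:98814444-98814693, minus strand): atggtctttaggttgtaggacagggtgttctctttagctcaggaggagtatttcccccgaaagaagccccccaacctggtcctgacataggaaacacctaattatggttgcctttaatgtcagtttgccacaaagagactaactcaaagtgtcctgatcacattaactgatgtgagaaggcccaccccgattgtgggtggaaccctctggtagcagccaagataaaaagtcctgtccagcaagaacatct
Fdx1 (chr9:51963603-51963852, minus strand): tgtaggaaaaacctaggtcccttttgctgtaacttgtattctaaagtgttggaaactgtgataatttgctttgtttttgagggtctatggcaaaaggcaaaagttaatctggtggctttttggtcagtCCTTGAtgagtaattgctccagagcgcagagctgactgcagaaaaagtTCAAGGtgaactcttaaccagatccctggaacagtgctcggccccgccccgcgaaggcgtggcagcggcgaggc
The motif stood once in the Hsd3b1 window, 128 bases before the start and on the opposite strand, and at 2 places in the Fdx1 window, 122 and 74 bases before the start. The Hsd3b6 window did not hold it. Of 6 windows given for 5 of the 8 members 2 held it, and of all 32851 mouse promoter windows of that length 12.5% did. A match describes the letters only. Star, Scarb1 and Tspo are named without a promoter.

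With age, no difference was detected in whole sections. In edgeR's quasi-likelihood test across 14044 genes, 0 genes passed the Benjamini-Hochberg threshold of 0.05 (0% of the genes tested; 392 had an unadjusted p under 0.05, and DESeq2 called 6 genes, none of them a member). The 7 members that passed the filter on low counts had log2 fold changes (aged relative to young, ± SE) of -0.17 ± 0.53 for Star, 0.11 ± 0.38 for Cyp11a1, 0.04 ± 0.33 for Hsd3b1, 0.09 ± 0.36 for Scarb1, -0.12 ± 0.34 for Fdx1, -0.07 ± 0.26 for Fdxr and 0.21 ± 0.52 for Tspo. All had an adjusted p of 1. Their median was 0.04, beside 0.01 for all genes. The CPM of the ages did not overlap for 0 of these 7 members, and for 1.38% of all genes tested.

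Within capture areas the direction differed by area. In area 3 all 7 tested members were lower in the aged than in the young section, with log2 ratios of CPM from -1.60 (Star) to -0.73 (Hsd3b1). In area 2 all 7 were higher in the aged section, from 0.01 (Hsd3b1) to 1.08 (Tspo). Areas 1 and 4 ran in both directions. Without area 3 all 7 fold changes were above 0, from 0.17 for Fdx1 to 0.54 for Scarb1, with adjusted p of 0.688 to 0.931, which turned the sign for Star, Fdx1 and Fdxr. The sign for Star also turned with 1 section left out, to 0.08 without young 3, 0.05 without aged 1 and 0.03 without aged 3.

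**Figure D1:**
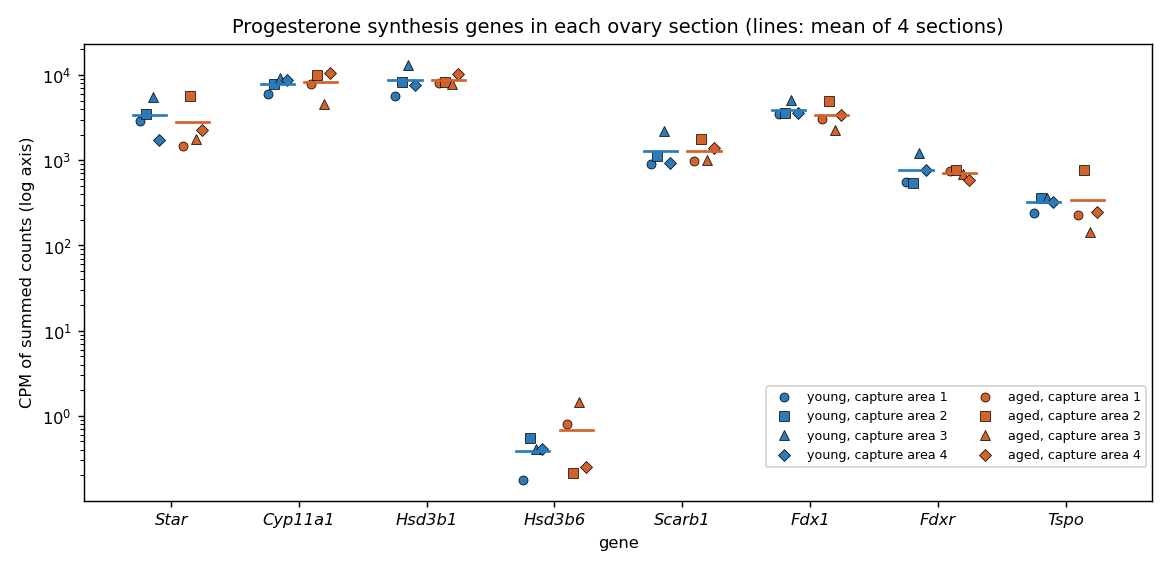
Level of each of the 8 genes (x axis) as CPM of the counts summed over a section (y axis, log scale), with 1 symbol per section, shaped by capture area and coloured by age, and a line at the mean of 4 sections. Young and aged symbols overlap for all 8 genes, and Hsd3b6 lies at 0.176 to 1.44 CPM, below all others.

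Most members were detected in nearly all spots, at very uneven levels. After thinning each spot to 5000 UMIs, which left out 110 young and 280 aged spots that were shallower, Hsd3b1 was found in 100% of the spots of each section, Cyp11a1 in 99.5 to 100% and Fdx1 in 98.5 to 100%. Star was found in 85.8 to 99.6% of spots, Scarb1 in 81.8 to 98.9%, Fdxr in 87.7 to 97.9% and Tspo in 43.6 to 95.9%. Unthinned shares were 95.4 to 100% for Star and 61.9 to 99.2% for Tspo. Spots high in smooth muscle genes, which should lack steroid synthesis, held a UMI of Star in 94.8% and of Cyp11a1 in 100% after thinning, so detection alone did not mark the cells that make these RNAs. Mean UMIs per thinned spot did differ there: 7.57 for Star beside 15.1 over all spots, and 22.9 for Cyp11a1 beside 40.5.

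Star varied widely between spots. From the spot at the 10th percentile to that at the 90th, its level went from 132 to 8467 CPM in young 1, a ratio of 64.2, and the ratio was 6.65 to 17.8 in the other 7 sections. Scarb1 had a larger ratio than Star in aged 2 (12.3 beside 9.16) and aged 3 (17.1 beside 13.9), and Tspo had one in young 3 (12.1) and aged 1 (9.30). Where the 10th percentile was 0 no ratio could be formed. This held for Tspo in young 1, aged 3 and aged 4, for Fdxr in aged 3, and for Hsd3b6 throughout. For Cyp11a1 the same ratio was 16.3 in young 1 and 3.27 to 8.82 elsewhere, and for Hsd3b1 it was 2.70 to 6.98. The 10% of spots richest in Star held 55.3, 36.2, 34.4 and 37.1% of its UMIs in young and 40.2, 22.8, 34.4 and 32.5% in aged sections, beside 8.62 to 19.2% of all UMIs. For Hsd3b1 these shares were 24.4, 19.6, 16.7 and 20.0% in young and 20.1, 20.6, 20.9 and 47.2% in aged sections. Aged 4 stood apart in Hsd3b1, and its richest spots were also deep, with 24.8% of all UMIs of the section beside 8.10 to 13.8% in the others. For none of Star, Cyp11a1, Hsd3b1, Scarb1, Fdx1, Fdxr and Tspo did this share pass a test between the ages (two-sided exact permutation tests over 4 against 4 sections, whose smallest possible p is 0.0286, with a lowest adjusted p of 0.800). Thinned detection of Star, Scarb1, Fdxr and Tspo did not pass either (adjusted p of 1), and that of Hsd3b1, Cyp11a1 and Fdx1, at 98.5 to 100% throughout, had little room to differ.

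Neighbouring spots had similar levels of the core genes. Moran's I, which is near 0 for a pattern without spatial order and approaches 1 when neighbours match, averaged 0.72 for Cyp11a1, 0.70 for Star, 0.65 for Hsd3b1, 0.64 for Fdx1 and 0.61 for Scarb1 over the 8 sections. It was 0.39 for Fdxr and 0.33 for Tspo, which apart from Hsd3b6 had the fewest UMIs per spot (medians of 12 and 5). The part of these low counts was not tested. In aged 3 Tspo was at 0.10, its lowest value, in the section with the fewest UMIs per spot.

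**Figure D2:**
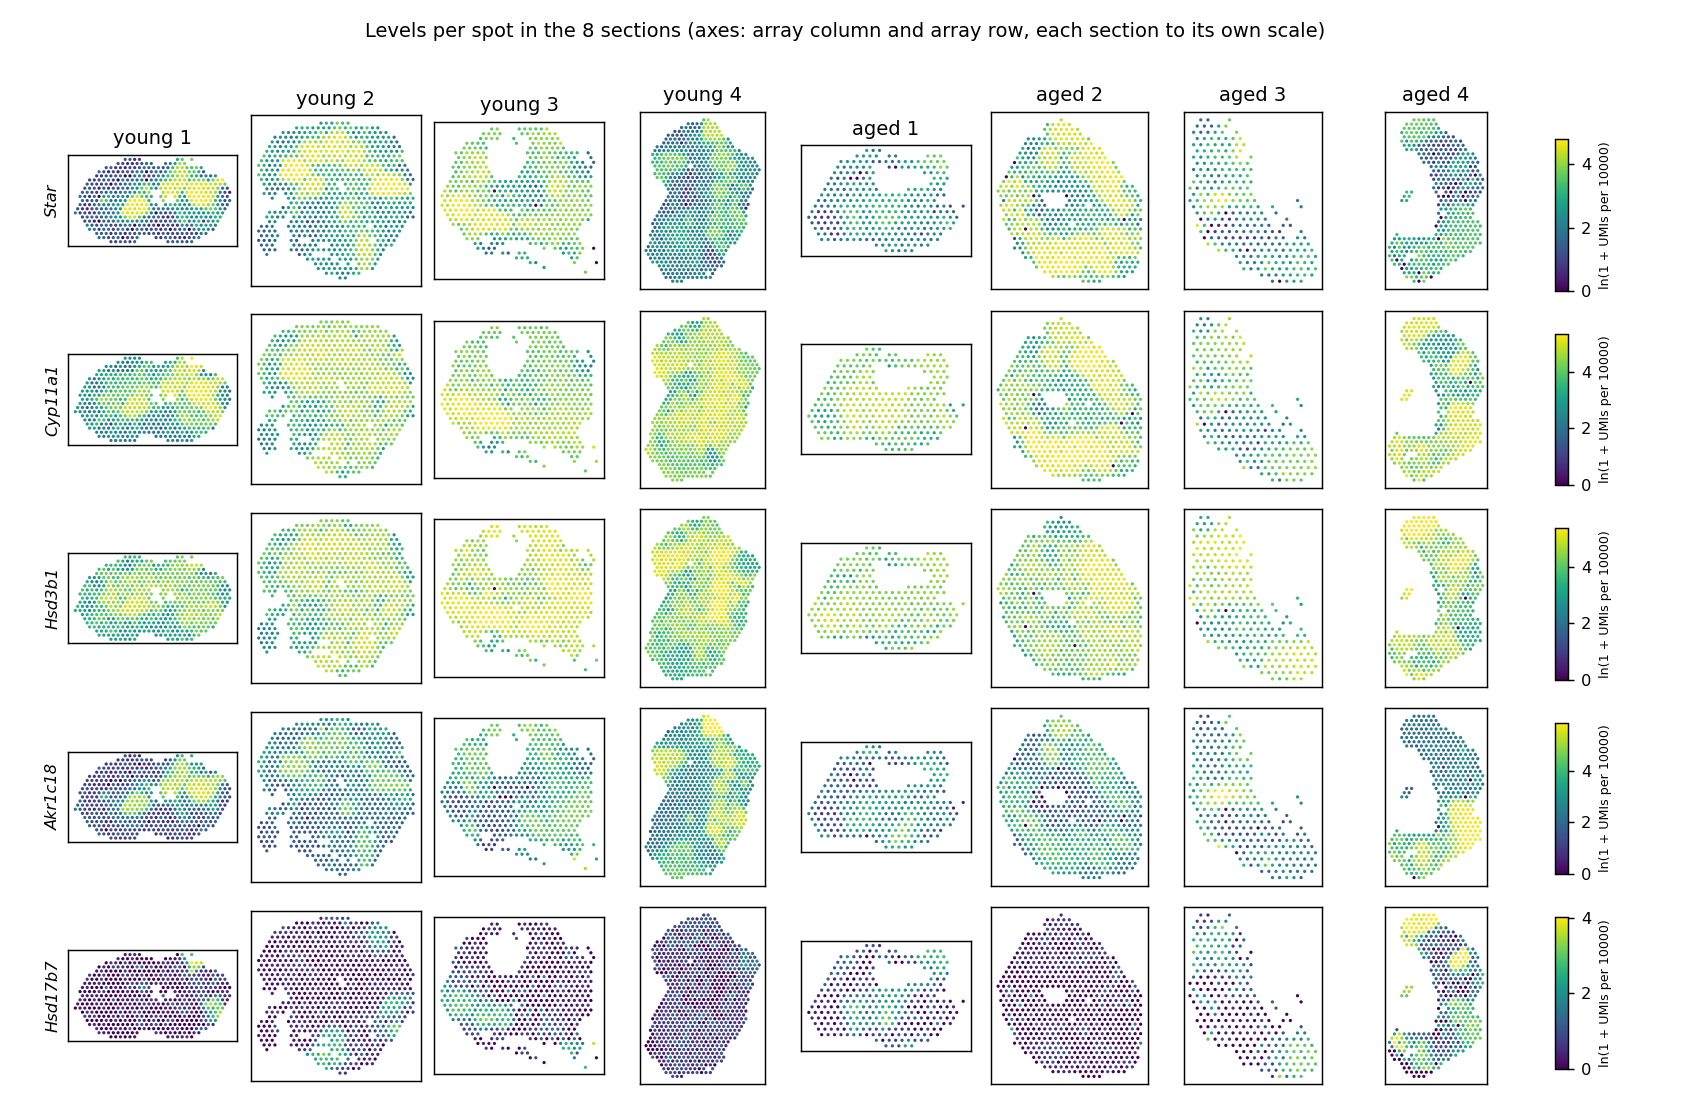
Level per spot, as the natural log of 1 plus UMIs per 10000, of Star, Cyp11a1, Hsd3b1, Akr1c18 and Hsd17b7 (rows, each with its own colour scale) in the 8 sections (columns), drawn at array column and row. Spots high in Star form patches that match those of Akr1c18 in young 1 (r of 0.92). This was the highest r of the 8 sections, and the lowest was 0.30 in young 3. In aged 4 spots high in Akr1c18 had 3890 CPM of Hsd3b1 and spots high in the Hsd17b7 set had 18545 CPM.

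To place the members among the tissues of the ovary, spots were classed by marker genes that include no member. A class held the spots that were in the highest 10% of all spots for 1 marker set and for no other. It is a range of a score and not a cell type: 31 spots lay within 0.1 SD above the bound of the Hsd17b7 set and 36 below it, and 79 and 82 did for Akr1c18. Spots high in the Hsd17b7 set (Hsd17b7, Prlr and Lhcgr, genes known from the functional corpus luteum) numbered 20, 65, 66 and 0 in young and 55, 0, 62 and 68 in aged sections. Spots high in Akr1c18 numbered 65, 17, 7 and 128 in young and 1, 19, 11 and 65 in aged sections. Both lay in patches: 63 of the 66 spots of young 3 in the first class and 54 of the 65 spots of aged 4 in the second formed a single connected patch. The share of spots in the Hsd17b7 class was 6.21 ± 5.40% in young and 14.7 ± 10.3% in aged sections (SD, n = 4 each; two-sided exact permutation test, p = 0.200, adjusted p = 0.942 over 9 classes). For the Akr1c18 class it was 8.16 ± 7.58% and 5.79 ± 6.76% (exact p = 0.743, adjusted p = 0.955). Without area 3 the differences, aged minus young, were 7.36 and -4.16 percentage points, beside 8.51 and -2.37 with it. Leaving out 1 section moved the first from 5.37 (without aged 3) to 13.41 (without aged 2).

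Cyp11a1, Hsd3b1, Scarb1 and Fdx1 had their 2 highest medians in these classes, and Star had its highest in the Akr1c18 class. Over the 6 sections with at least 10 spots of the class, Star in Akr1c18-high spots had a median of 8244 CPM (2938 to 10833), 2.81 times the level of the same section as a whole, and was above it in 6 of 6 sections. In spots of the Hsd17b7 class its median was 2612 CPM (1261 to 9451), above the section in 4 of 6. Cyp11a1 was above its section in 6 of 6 sections in both classes, with medians of 13322 CPM (9809 to 14566) and 11978 CPM (7322 to 16742). Hsd3b1 had the higher median in the other class, over overlapping ranges, with a median of 11904 CPM (9674 to 18545) and 6 of 6 sections above their own level in the Hsd17b7 class, and 9798 CPM (2486 to 12854) and 4 of 6 in the Akr1c18 class.

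Fdx1 and Scarb1, like Star, had the higher median in the Akr1c18 class. Their medians were 7570 CPM (1565 to 8790) and 2246 CPM (690 to 2647) in Akr1c18-high spots, and 4522 CPM (2993 to 8364) and 1934 CPM (930 to 3666) in the Hsd17b7 class. Fdxr, like Hsd3b1, had the lower median there, with 657 CPM (373 to 853) and 898 CPM (593 to 1348). Tspo was lower than the section as a whole in 6 of 6 sections in the Hsd17b7 class, at 182 CPM (105 to 212), and at 518 CPM (207 to 590) in Akr1c18-high spots, above the section in 4 of 6.

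Star had its lowest median in the Cyp17a1 class, Cyp11a1 in the Inhba class and Hsd3b1 in the Zp3 class. These classes were not low for every gene: Hsd3b1 had lower medians in smooth muscle spots (5219 CPM) and in spots high in the Upk3b set (surface epithelium, 5125 CPM) than in the Inhba and Cyp17a1 classes. In spots high in the Inhba set (genes of granulosa cells of growing follicles), Star was at a median of 952 CPM (351 to 2996), Cyp11a1 at 2664 CPM (1491 to 4840) and Scarb1 at 510 CPM (353 to 1238), each below its section in 8 of 8 sections. Hsd3b1 was at 6928 CPM (3206 to 12783) there and above its section in 2 of 8, at a median ratio to the section of 0.735, the nearest to 1 of the 7 members. In spots high in the Zp3 set (oocyte genes) all 7 members were below their section in 4 of 4 sections. Spots high in the Cyp17a1 set, genes of theca and interstitial cells, had 940 CPM of Star (837 to 1392), 6306 CPM of Cyp11a1 (3795 to 8381) and 6594 CPM of Hsd3b1 (5282 to 8087) over 4 sections. Tspo was above its section in 5 of 6 sections in spots high in the Agt set (stroma) and in 5 of 6 in those high in the C1qa set (macrophages).

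When the 9 classes were ordered by their median for each of the 8 members, only 2 of 64 neighbouring pairs had ranges over sections that did not overlap, both for Tspo. The order of adjacent classes is therefore not resolved for the others. The spots were chosen by other genes of the same libraries, and spots of both classes were deep, with medians of 26196 UMIs in the Hsd17b7 class and 27174 in the Akr1c18 class beside 17750 over all spots. With every spot thinned to 5000 UMIs, the mean was 28.2 UMIs of Star in the Akr1c18 class, 17.4 in the Hsd17b7 class and 7.57 in smooth muscle spots, and 48.9, 67.8 and 28.5 UMIs of Hsd3b1.

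**Figure D3:**
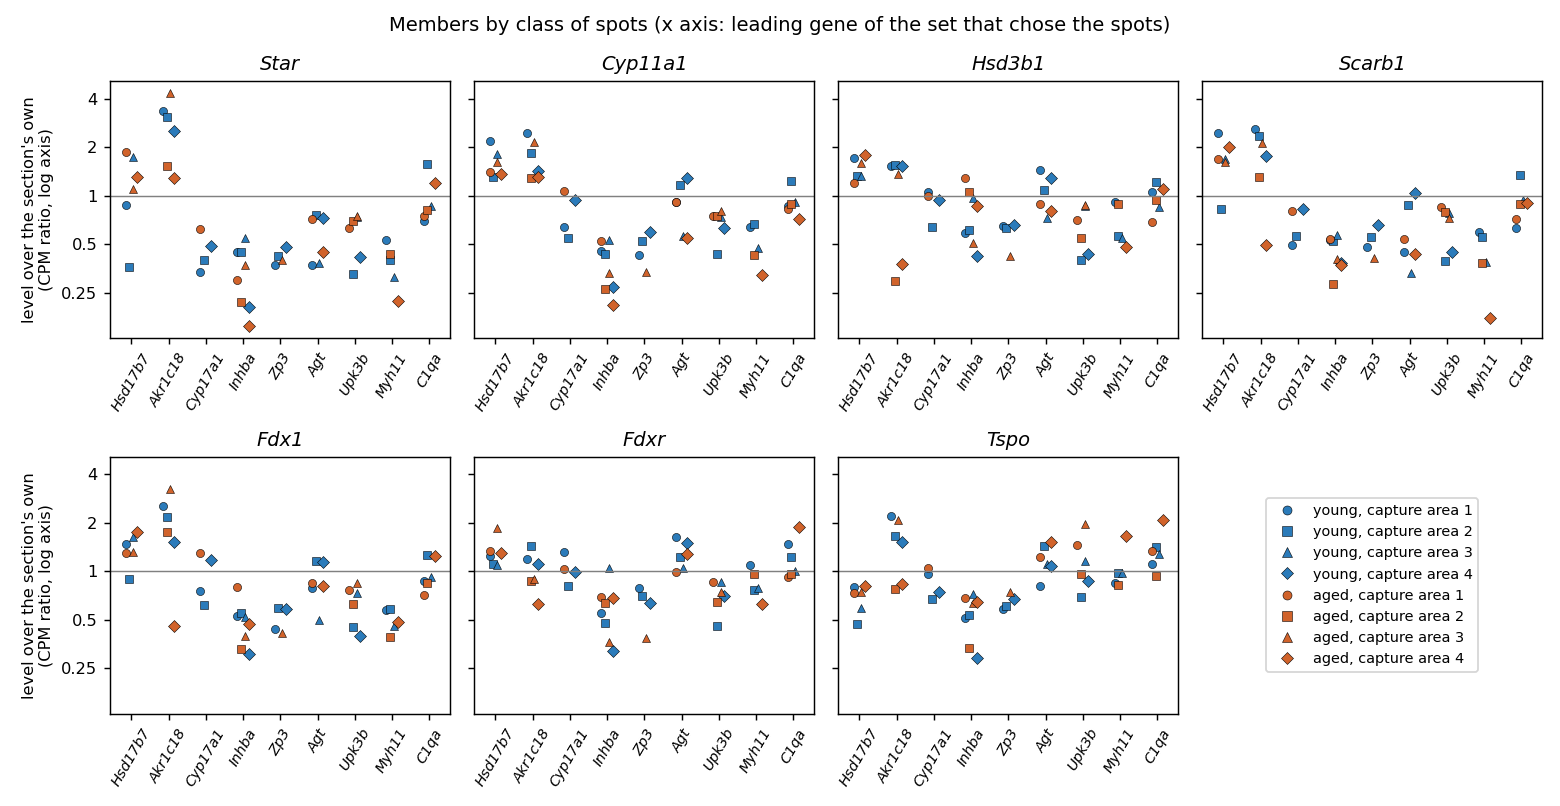
Level of 7 members in 9 classes of spots, named by the leading gene of the set that chose them (x axis), divided by the level of the same section as a whole (y axis, log scale, grey line at 1), for classes with at least 10 spots in a section. Star is above 1 in all 6 sections of the Akr1c18 class and below 1 in all 8 of the Inhba class, while Tspo is below 1 in all 6 sections of the Hsd17b7 class.

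These 2 classes were compared directly in the 4 sections that held at least 10 spots of both, with the section as a block. Star and Tspo had the largest fold changes of the members. Tspo rose from 194 to 538 CPM in young 1, from 169 to 590 in young 2, from 105 to 296 in aged 3 and from 200 to 207 in aged 4. The log2 fold change, Akr1c18-high over Hsd17b7 class, was 1.37 ± 0.31 (SE), and it passed the threshold (edgeR quasi-likelihood test, adjusted p = 0.0476). Of the 9866 genes tested 2.21% passed, and 1.03% passed with the higher level in Akr1c18-high spots. The call was marginal: leaving out young 1, young 2 or aged 3 gave 1.24, 1.16 and 1.25 with adjusted p of 0.263, 0.240 and 0.243, and leaving out aged 4 gave 1.77 with an adjusted p of 0.000373.

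Star was at 2490, 1261, 1965 and 2965 CPM in the Hsd17b7 class of young 1, young 2, aged 3 and aged 4, and at 9568, 10833, 7844 and 2938 CPM in their Akr1c18-high spots. It was higher in the latter in 3 of 4 sections and level in aged 4. The log2 fold change was 1.97 ± 0.47, the largest of the members, with an adjusted p of 0.0561, which missed the threshold. Without aged 4 it was 2.53 with an adjusted p of 0.000455, and Fdx1, at 0.63 ± 0.52 over all 4 sections (adjusted p = 0.723), was then at 1.30 with an adjusted p of 0.0209.

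The other members did not pass. Cyp11a1 had a log2 fold change of 0.43 ± 0.30 (adjusted p = 0.651), Scarb1 one of 0.21 ± 0.48 (0.945), Fdxr one of -0.28 ± 0.29 (0.799) and Hsd3b1 one of -0.39 ± 0.43 (0.810). Aged 4 stood apart here. Its Hsd3b1 was at 18545 CPM in the Hsd17b7 class and 3890 CPM in Akr1c18-high spots, its Fdx1 at 5966 and 1565 CPM and its Scarb1 at 2814 and 690 CPM, whereas in the other 3 sections Fdx1 and Scarb1 were higher in Akr1c18-high spots and Hsd3b1 changed by less than 1.5 times. The Akr1c18-high spots of aged 4 also held 1686 CPM of Hsd17b7, beside 64.3 to 125 CPM in those of the other 3 sections. Macrophage genes moved with the comparison: C1qa, C1qb, Cd68 and Adgre1 were each higher in Akr1c18-high spots in 4 of 4 sections, C1qa at 61.8 to 125 CPM beside 33.1 to 59.2 CPM. The 4 genes, which are the whole macrophage set, summed to 156 to 325 CPM in Akr1c18-high spots and to 112 to 129 CPM in the Hsd17b7 class. Their part in the difference in Tspo was not tested.

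**Figure D4:**
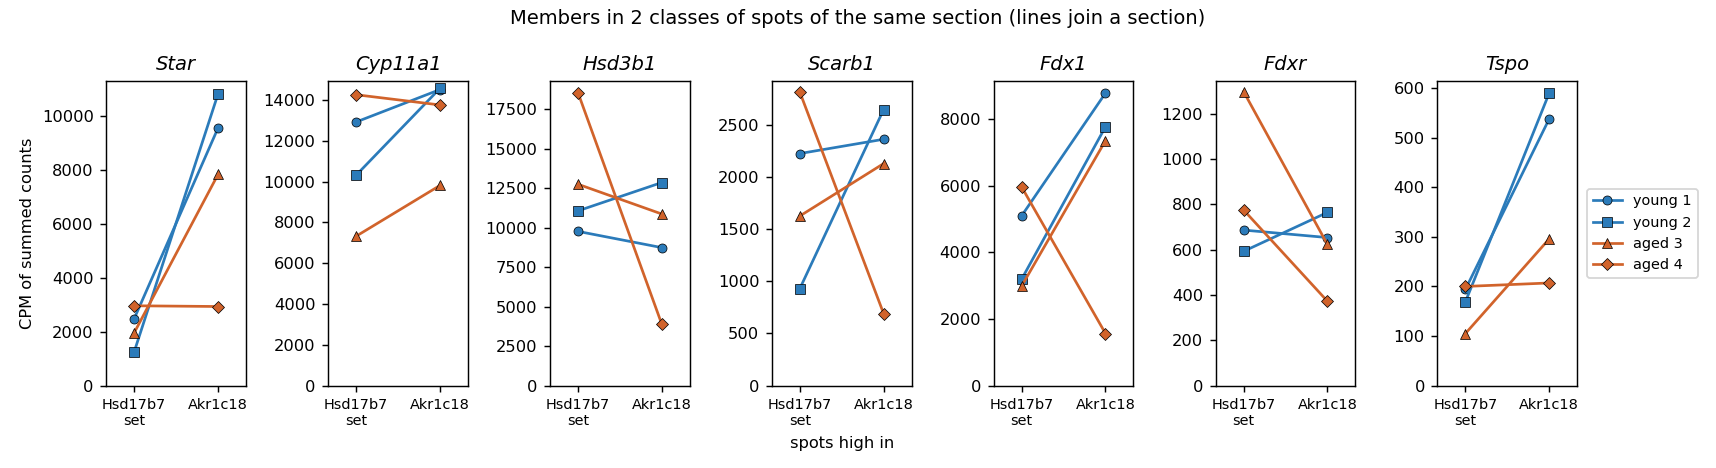
CPM of 7 members (panels, y axes from 0) in spots high in the Hsd17b7 set and in spots high in Akr1c18, with a line joining the values of each of the 4 sections that held both. Star and Tspo lines rise in young 1, young 2 and aged 3 and are flat in aged 4, whose Hsd3b1, Scarb1 and Fdx1 lines fall.

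Age was then compared inside each class. In spots of the Hsd17b7 class (young 1, 2 and 3 against aged 1, 3 and 4) 0 of 10636 genes passed in edgeR (0%; 255 had an unadjusted p under 0.05). With capture area as a block 16 genes passed, none of them a member. Only areas 1 and 3 held both ages in that fit, so young 2 and aged 4 did not inform the age term. Star was at 2490, 1261 and 9451 CPM in young and 2734, 1965 and 2965 CPM in aged sections, a log2 fold change of -0.81 ± 0.71 with an adjusted p of 1. The ages overlapped, young 3 was the highest of the 6, and without that section the fold change was 0.33. Hsd3b1 was at 9762, 11060 and 17458 CPM in young and 9674, 12747 and 18545 CPM in aged sections, a log2 fold change of 0.01 ± 0.65. The other 5 tested members lay between -0.42 and 0.11. Without area 3 Star was at 0.60, Cyp11a1 at 0.11, Hsd3b1 at 0.41, Scarb1 at 0.50, Fdx1 at 0.24, Fdxr at 0.47 and Tspo at 0.00. With capture area as a block Star was at -1.21, Cyp11a1 at -0.85, Hsd3b1 at -0.37, Scarb1 at -0.94, Fdx1 at -1.07, Fdxr at 0.12 and Tspo at -0.76 (edgeR adjusted p of 0.887 to 0.988), so the sign of most members depended on how area 3 entered the fit.

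In Akr1c18-high spots (young 1, 2 and 4 against aged 2, 3 and 4) 0 of 9492 genes passed (0%; 567 had an unadjusted p under 0.05), and all 7 tested members had fold changes below 0, with a median of -0.42 beside 0.00 for all genes. Hsd3b1 was at 8735, 12854 and 11580 CPM in young and 2486, 10862 and 3890 CPM in aged sections. Aged 2 and aged 4 were below all young sections and aged 3 was among them. Its log2 fold change was -1.04 ± 0.53 (edgeR unadjusted p = 0.0808, adjusted p = 0.866), and leaving out 1 section at a time gave -1.76 (without aged 3, and the same without area 3) to -0.74 (without aged 2). With capture area as a block it was -1.90 (edgeR adjusted p = 0.171). Only areas 2 and 4 held both ages in that fit, so young 1 and aged 3 did not inform the age term. The spots of aged 4 in this class differed from those of the other 5 sections in other genes as well, with 1686 CPM of Hsd17b7 beside 64.3 to 125, and 1144 CPM of Ptgfr beside 2160 to 2355. Without aged 4 Hsd3b1 was at -0.82. Star was at 9568, 10833 and 4333 CPM in young and 8643, 7844 and 2938 CPM in aged sections (-0.42 ± 0.54, adjusted p = 0.948), and it was at -0.50 without area 3. Without area 3 all 7 were again below 0, from -1.76 for Hsd3b1 to -0.04 for Cyp11a1, whereas with capture area as a block Cyp11a1 was at 0.04. These 2 classes share sections with the whole-section comparison and are not independent of it.

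Whether the age difference in the Hsd17b7 class differed from that in the rest of the same section was tested with an interaction term, and 0 of 12435 genes passed (0%; 493 had an unadjusted p under 0.05). The largest interaction among the members was 0.92 ± 0.69 for Star (adjusted p = 1). It was 2.01 without area 3 (adjusted p = 0.451) and 0.19 (without young 2) to 1.62 (without young 3) with 1 section left out. Fdxr had 0.63 ± 0.31 with an unadjusted p of 0.0657 in edgeR, and Cyp11a1 had -0.17 ± 0.44, and these were at 0.43 and -0.03 without area 3.

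Across the spots of a section, the members varied together to different degrees. All correlations are of log levels within 1 section, over 257 to 762 spots that share a library but differ in depth, and are given as descriptions. Star and Cyp11a1 had Pearson's r of 0.85, 0.78, 0.73 and 0.68 in young and 0.68, 0.84, 0.78 and 0.69 in aged sections. Cyp11a1 and its electron donor Fdx1 also varied together, at 0.73 to 0.94 in young and 0.40 to 0.83 in aged sections. Star and Hsd3b1 had r of 0.63, 0.73, 0.66 and 0.53 in young and 0.27, 0.26, 0.65 and 0.13 in aged sections. Aged 1, 2 and 4 thus lay below all young sections and aged 3 among them. Thinned to 5000 UMIs, which evens out depth, the same pair had 0.57, 0.69, 0.64 and 0.47 in young and 0.20, 0.21, 0.77 and 0.12 in aged sections, with aged 3 then the highest.

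Cyp11a1 and Hsd3b1 showed the same arrangement, with r of 0.84, 0.90, 0.56 and 0.73 in young and 0.41, 0.25, 0.78 and 0.19 in aged sections. The pairs that run through Hsd3b1 were chosen after their values were seen, and their difference between the ages was not tested. Overlap of the richest spots gave another view. Of the 10% of spots richest in Star, the share also among the 10% richest in Hsd3b1 was 44.4, 38.4, 52.7 and 40.3% in young and 33.3, 25.8, 30.8 and 47.6% in aged sections, while for Star and Cyp11a1 it was 66.7, 65.8, 83.6 and 27.3% in young and 43.3, 39.4, 57.7 and 19.0% in aged sections. These overlaps did not order the sections as r did: young 4 and aged 4 had less Star in common with Cyp11a1 than with Hsd3b1. The classes of the richest spots varied from section to section, as did the size of each class. The Akr1c18 class held 12.2, 2.33, 1.29 and 16.8% of all spots in young and 0.334, 2.91, 4.28 and 15.6% in aged sections. For the Hsd17b7 class these shares were 3.76, 8.90, 12.2 and 0% in young and 18.4, 0, 24.1 and 16.3% in aged sections. Where a class held few or no spots, a low share was fixed in advance. Of the spots richest in Star, 81.5, 20.5, 0 and 85.7% in young and 0, 1.52, 30.8 and 16.7% in aged sections were in the Akr1c18 class, and 0, 0, 89.1 and 0% in young and 73.3, 0, 3.85 and 45.2% in aged sections were in the Hsd17b7 class. Of those richest in Hsd3b1, 33.3, 9.59, 0 and 71.4% in young and 0, 0, 3.85 and 0% in aged sections were in the Akr1c18 class, and 11.1, 13.7, 50.9 and 0% in young and 36.7, 0, 61.5 and 88.1% in aged sections were in the Hsd17b7 class. In aged 2, 90.9% of the spots richest in Star were in no class, beside 53.8% of all spots of the 8 sections. Of all spots of aged 2, 0% were in the Hsd17b7 class and 2.91% in the Akr1c18 class. A spot in the highest 10% for several sets also counts as in no class.

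Averaged over the 8 sections, Tspo had the lowest correlations with the others of the 7 tested members, with mean r of 0.36 with Star, 0.35 with Cyp11a1 and 0.24 with Hsd3b1. In young sections alone Fdxr was below Tspo with Star (mean r of 0.42 beside 0.54), Scarb1 (0.37 beside 0.49) and Fdx1 (0.47 beside 0.49). There Fdxr was above Tspo with Cyp11a1 (0.57 beside 0.47) and Hsd3b1 (0.68 beside 0.41). Tspo was also the sparsest of the 7, with a median of 5 UMIs per spot beside 28 for Star, 109 for Cyp11a1 and 121 for Hsd3b1. Few UMIs add sampling noise, which lowers r, and the part of this was not tested. Tspo against Star had 0.68, 0.73, 0.26 and 0.51 in young and 0.04, 0.29, 0.17 and 0.17 in aged sections. Hsd3b6 had a mean r of at most 0.03 with each of the others, on the few UMIs it had. The median over the 21 pairs of the other 7 members was 0.65, 0.76, 0.50 and 0.60 in young and 0.40, 0.37, 0.62 and 0.35 in aged sections.

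**Figure D5:**
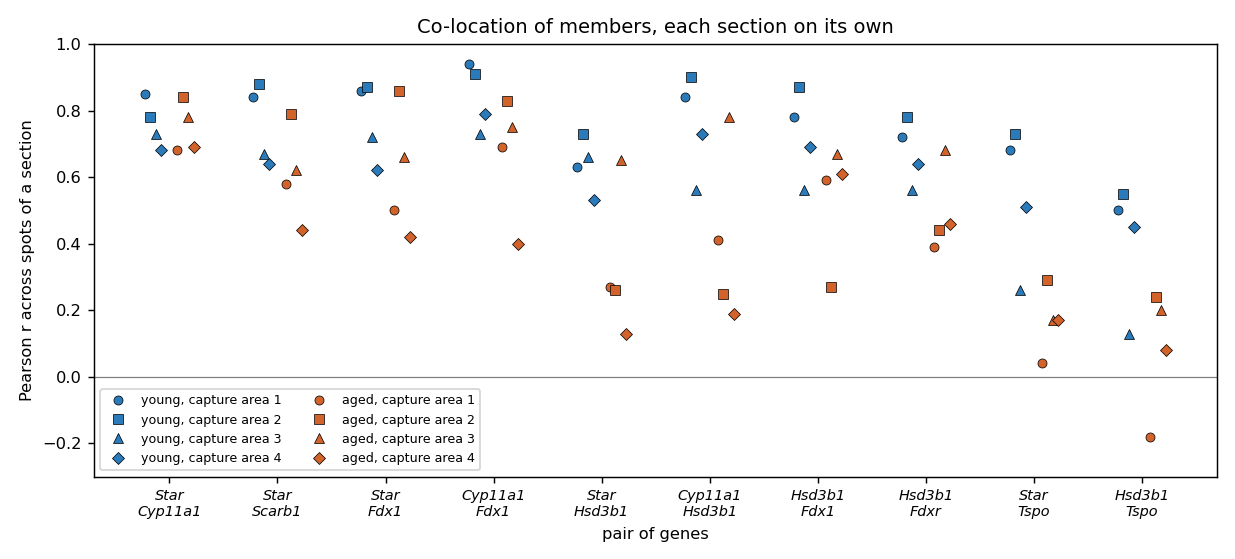
Pearson's r between pairs of members (x axis) across the spots of a section (y axis), with 1 symbol per section shaped by capture area and coloured by age. Star with Cyp11a1 stays at 0.68 to 0.85 in all 8 sections, while Star with Hsd3b1 is at 0.53 to 0.73 in young sections and at 0.13 to 0.27 in aged 1, 2 and 4, with aged 3 at 0.65.

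Among 10709 genes with a UMI in at least 5% of the spots of every section, the 12 outside the set whose spot pattern was most like the mean of Star, Cyp11a1 and Hsd3b1 were Sfrp4, Ptgfr, Idh1, Lgmn, Prlr, Gpx3, S100a6, Me1, Epdr1, Efhd1, Dhcr7 and Ephx2. Their mean r over the 8 sections ran from 0.75 to 0.61, and the median of all genes was -0.01. Sfrp4, a secreted antagonist of Wnt signalling, had 0.64 to 0.88 over the 8 sections, and Ptgfr, the receptor of prostaglandin F2-alpha, had 0.58 to 0.82. Prlr, the prolactin receptor, had 0.56 to 0.76. Idh1 and Me1, which make cytosolic NADPH, had 0.57 to 0.82 and 0.48 to 0.87, and Dhcr7, which completes cholesterol synthesis, had 0.40 to 0.75. S100a6 was the least even of the 12, with 0.15 in aged 1 and 0.30 in young 3 beside 0.59 to 0.88 in the other 6 sections. By the same measure Fdx1 had 0.80, Scarb1 0.75, Fdxr 0.55 and Tspo 0.37.

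Other genes of the pathway, in 3 lists that exclude the members, did not pass with age in whole sections in edgeR. Of 14 genes of cholesterol supply 0 passed, 11 had fold changes above 0 and 3 below, and their median was 0.65 beside 0.01 for all genes. Cyp51, an enzyme of cholesterol synthesis, was at 1.02 ± 0.66 (adjusted p of 1). Its level was 672 CPM in aged 4, beside 92.9 to 196 CPM in the other aged and 67.5 to 339 CPM in the young sections. Without area 3, a check added after the data were seen, 0 passed, 12 were above 0, the median was 1.13 and Cyp51 was at 1.95 ± 0.53 (adjusted p = 0.320). Of 11 steroid enzymes tested from a list of 12, 0 passed, and the largest was Cyp19a1, aromatase, at 2.91 ± 1.17, with 0.601 to 12.4 CPM in young and 1.05 to 85.9 CPM in aged sections. Hsd17b7 had 1.88 ± 0.85, with 119 to 381 CPM in young and 457, 51.1, 541 and 2202 CPM in aged sections 1 to 4. Aged 4 thus stood apart and aged 2 was the lowest of all. Without area 3 Cyp19a1 and Hsd17b7 were at 4.12 and 2.35 (adjusted p of 0.384 and 0.597). Of 19 regulators and receptors tested from a list of 20, 0 passed, and the largest were Nr5a2 at 1.06 ± 0.51 and Cebpa at -0.93 ± 0.35, at 1.03 and -0.92 without area 3.

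Between the Akr1c18 and Hsd17b7 classes, none of the lists had a gene that passed in edgeR. Of the 14 genes of cholesterol supply 12 had the lower level in Akr1c18-high spots and 2 the higher, 0 passed, and their median log2 fold change was -0.35 beside 0.01 for all genes. Hmgcs1, an early enzyme of cholesterol synthesis, was at 1123, 1267, 630 and 2971 CPM in the Hsd17b7 class and 298, 822, 327 and 1627 CPM in Akr1c18-high spots of young 1, young 2, aged 3 and aged 4 (-0.91 ± 0.28, adjusted p = 0.148). Npc2 had -0.79 ± 0.35 (adjusted p = 0.369). Of 15 regulators tested that had not chosen the spots 0 passed. Nr5a2 was at 152, 98.0, 267 and 97.2 CPM and at 41.3, 35.4, 117 and 72.1 CPM, lower in Akr1c18-high spots in 4 of 4 sections (-1.05 ± 0.28, adjusted p = 0.0869), and Mgst1 had 1.54 ± 0.55 (adjusted p = 0.239). Of 8 steroid enzymes tested 0 passed, with Hsd11b1 at 1.86 ± 0.62 (adjusted p = 0.195) and Srd5a1 at -1.04 ± 0.40 (adjusted p = 0.279).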

How the data were processed

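Spatial expression was measured in 4 young and 4 aged mouse ovary sections. The authors deposited raw UMI counts per gene and spot, whole numbers without normalization, and spot positions (other units, per the files' layout). Image scale factors were not used here. Space Ranger 1.2.1 and mm10 were used, per the submitters' processing notes. Which annotation and filters were applied, and whether counting used strand, is not given in the sources used here, so antisense or overlapping reads cannot be told apart.

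The members, lists and classes were chosen with earlier results of these data known. Of 4263 spots over tissue, 72 without a column were left out. Spots were assigned by the widest gap in the middle 60% of the axis that the labels name. Counts were summed per section, or per section and class, and tested in edgeR 4.0.16 (quasi-likelihood test, TMM, filterByExpr, R 4.3.3), with DESeq2 1.42.0 as an alternative. The test was checked on counts simulated with the same spread between sections for every gene. That spread was not estimated from these data, so the check does not give the power of the test here. CPM are over section or class totals without TMM factors, so their ratios can differ from fold changes. Classes used the mean z-score of log levels (UMIs per 10000). Of the 4191 spots, 838 were in the highest 10% for several sets and 1416 for none. Deeper sections give more precise values, and the shallowest had 2777948 UMIs. No caller of doublets was run, as spots are not cells. The 1358 barcodes found in more than 1 area are array positions and not shared cells. Positions came from GENCODE M21 (mm10) and promoters from RefSeq (GRCm38.p6).

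Named genes were all members, the 12 genes most alike, and from each list those that passed or, where none did, the 2 with the largest absolute fold change. Other genes were named after their values were seen. A gene that this rule names is not reported here. The sections of an area share a number and an array, which pairs them. Correlations of their deviations across genes were 0.00358, 0.165, -0.224 and 0.208. The fit with capture area as a block was an alternative, beside other scalings, no filter, 5% and 20% classes, k-means assignment, thinning, and leaving out sections or area 3.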

Additional observations from a re-analysis of the deposited data

Results flagged for a closer look

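Of 52 groups of 4 sections examined, 6 had 1 section set apart from the other 3 by a gap above the 95% critical value of Dixon's test, where chance gives about 1 in 20. Fdx1 in young 3 was at 5094 CPM, beside 3461 to 3578 CPM in the other young sections. The 10% of spots richest in Star held 55.3% of its UMIs in young 1, beside 34.4 to 37.1%. The 10% richest in Hsd3b1 held 47.2% of its UMIs in aged 4, beside 20.1 to 20.9%, and these spots held 24.8% of all UMIs of that section. Detection in thinned spots was lower for Cyp11a1 in young 1, at 99.8% beside 100%, for Cyp11a1 in aged 3, at 99.5% beside 100%, and for Fdx1 in aged 3, at 98.5% beside 99.8 to 100%. Detection was near its ceiling: where the other sections are all at 100%, as for Cyp11a1, any spot without a UMI sets a section apart, so these say little. No cause of these was tested.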

How the results depend on the processing

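With 4 sections per age and at most 4 in the comparison of classes, most age differences lay within their standard errors. Fold changes of members with age in whole sections changed sign in some fits. Hsd3b1 was at -0.01 with library size alone as the scaling. With capture area as a replicate block Tspo was at -0.17, and 0 genes passed as in the unblocked fit. Without capture area 3 Star was at 0.29, Fdx1 at 0.17 and Fdxr at 0.25. Leaving out 1 section at a time, Star ranged from -0.89 to 0.08, Cyp11a1 from -0.07 to 0.34, Hsd3b1 from -0.12 to 0.24, Scarb1 from -0.20 to 0.39, Fdx1 from -0.44 to 0.07, Fdxr from -0.20 to 0.18 and Tspo from -0.66 to 0.49. DESeq2 called 6 genes.

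In the Hsd17b7 class, Hsd3b1 with age was at -0.03 with the highest 5% of spots and -0.37 under the replicate block. Without area 3 Star was at 0.60, Cyp11a1 at 0.11, Scarb1 at 0.50, Fdx1 at 0.24 and Tspo at 0.00. Without 1 section at a time, Star ranged from -1.23 to 0.33, Hsd3b1 from -0.38 to 0.24, Scarb1 from -0.61 to 0.25 and Fdxr from -0.06 to 0.50. In the Akr1c18 class, Cyp11a1 with age was at 0.04 under the replicate block, and without 1 section Fdx1 ranged from -0.92 to 0.08. In the comparison of the classes, leaving out 1 section moved Scarb1 from -0.30 to 0.84 and Hsd3b1 from -0.66 to 0.12. The interaction of Fdx1 ranged from -0.06 to 0.59.

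Counts of genes that passed rose without the filter on low counts, to 52 in the Hsd17b7 class, 323 in the Akr1c18 class, 71 for the interaction and 692 between the classes, where 2 members then passed. The replicate block gave 16 in the Hsd17b7 class, where only areas 1 and 3 held both ages. None was a member, and the block changed no other call of a member. Without 1 section the count was 0 to 30 in the Akr1c18 class (30 without aged 2), 0 to 2 for the interaction (2 without aged 4) and 63 to 547 between the classes, with 0 to 3 members passing. Of these last counts, 64 came without young 1, 82 without young 2, 63 without aged 3 and 547 without aged 4. Without area 3 there were 63 genes and 0 members between the classes and 1 gene for the interaction. The share of spots in the Akr1c18 class, aged minus young, was -2.37 percentage points, 0.78 with the highest 5% of spots, and -5.65 to 0.51 without 1 section (0.51 without young 4). The cause was not tested for any of these. The highest 20% of spots could not be used for the classes with age, for the interaction or between the classes, nor the highest 5% for the Akr1c18 class or between the classes, because too few sections held enough spots. Of the counts of genes and members, the class shares and the median correlation between members under all alternatives, 114 stayed near the reported value, 20 moved and 2 turned sign. Of the values of single members (fold changes, shares in the richest spots and detection), 344 stayed, 42 turned sign, 26 moved, 4 no longer passed and 3 newly passed.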
